A study of Mus musculus with 14 samples.

Results

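The 9 genes described here are genes of the testosterone-producing Leydig cells of the testis, picked by symbol out of the 24984 genes counted: Scarb1, Star, Cyp11a1, Cyp17a1, Hsd3b1, Hsd3b6, Hsd17b3, Insl3 and Lhcgr. They were measured in RNA of differentiating spermatogonia sorted for c-KIT, germ cells past the stem cell stage and on their way to meiosis. They were picked as genes of another cell type than the one sorted, and which cells their counts came from was not tested. The set was selected on measured values, namely the levels and mutant-to-control fold changes of these same libraries, and Cyp17a1 is in it because it was the only gene called lower after deletion of Cbx2, a subunit of a Polycomb chromatin complex. The values of these 9 genes between mutant and control are therefore given as a description, with no test. All libraries came from testes of C57BL/6J mice, and the age of the animals is not given in the labels.

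The deletion experiment had 2 control libraries, from Rosa26-CreERT2; Cbx2 Flox/+ mice given 200 µL of corn oil, and 2 deleted libraries, from Rosa26-CreERT2; Cbx2 Flox/Δ mice given 200 µL of tamoxifen at 20 mg/mL in corn oil, each by 3 daily injections into the abdomen. All 4 animals carried CreERT2, a recombinase that tamoxifen switches on, from the broadly active Rosa26 locus, so recombination was not limited to germ cells, and all carried a floxed Cbx2 allele. Genotype and tamoxifen cannot be told apart in this design. The 23KRA experiment compared 5 untreated Cbx2 +/+ mice with 5 untreated Cbx2 23KRA/23KRA mice, in which lysines and arginines of the CaPS domain of the protein are changed to alanine. Per the protocols, each group drew on a number of animals equal to its number of libraries. Deletion libraries were made with an mRNA kit and 23KRA libraries, per their protocol, with a stranded total RNA kit, although their labels also give polyA RNA as the molecule, so each comparison was made within its own experiment.

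Leydig cells lie between the seminiferous tubules and make testosterone from cholesterol under luteinizing hormone. Cholesterol enters through receptors such as the product of Scarb1, is carried into mitochondria with the help of the product of Star, and is cleaved there to pregnenolone by the enzyme that Cyp11a1 encodes. Enzymes encoded by Hsd3b1 or Hsd3b6, Cyp17a1 and Hsd17b3 then complete the path to testosterone, Insl3 encodes a peptide hormone of the same cells, and Lhcgr encodes their luteinizing hormone receptor. Scarb1 is also known from Sertoli cells, the nurse cells of the tubule, and KIT, the protein used for the sort, is also known on Leydig cells.

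Neighbouring or near-identical sequences bear on what a count of some of these genes holds. Hsd3b1 (chromosome 3, 98852194 to 98859794, minus strand) and Hsd3b6 (chromosome 3, 98805504 to 98814443, minus strand; GENCODE annotation of GRCm38) lie side by side, and their coding sequences of 1122 bases each are 90.02% identical. Of the stretches of 50 bases in the coding sequence, 2.16% in Hsd3b1 and 15.5% in Hsd3b6 also occur in another gene of the Hsd3b family. Both genes are shown over the 90 coding bases where they differ least, positions 213 to 302 counted from the start codon. A read from there that covers neither differing base cannot be assigned to one of them. Capitals mark the 2 bases that differ.
Hsd3b1: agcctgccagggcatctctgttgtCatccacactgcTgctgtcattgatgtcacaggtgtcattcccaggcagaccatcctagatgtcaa
Hsd3b6: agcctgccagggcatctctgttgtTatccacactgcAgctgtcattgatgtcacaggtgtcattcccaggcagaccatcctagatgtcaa

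The stretch where the pair differ most, coding positions 64 to 153, shows that reads from other places can be told apart. Here 19 of 90 bases differ, again in capitals.
Hsd3b1: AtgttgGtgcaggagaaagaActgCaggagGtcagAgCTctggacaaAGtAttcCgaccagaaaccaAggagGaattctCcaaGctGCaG
Hsd3b6: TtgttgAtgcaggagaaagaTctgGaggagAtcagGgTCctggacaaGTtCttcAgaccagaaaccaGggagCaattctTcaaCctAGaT

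Insl3 (chromosome 8, 71689214 to 71690575, plus strand) shares 404 of its 623 exon bases, 64.8%, with exons of the kinase gene Jak3 on the same strand. Star (chromosome 8, 25806555 to 25815982, plus strand) lies 13 bases from Ash2l, a widely used gene of a histone methyltransferase complex on the other strand, but shares no exon base with it. Cyp11a1 (chromosome 9, 58006411 to 58027023, plus strand) shares 3.02% of its exon bases with the noncoding gene Gm17322. How reads in such shared stretches were counted is not given in the sources used here.

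Insl3 and Lhcgr, which lay on opposite sides of their controls in the deletion, both hold the letters TCAAGG in the RefSeq promoter window (GRCm38.p6, 300 bases around the start). These letters are the core of sites known for the steroidogenic transcription factor SF-1, the product of Nr5a1. They were chosen as a motif after the promoters had been read, were searched on both strands, and occur in 4744 of 32851 promoter windows, 14.4%. They occur in 4 of the 6 Leydig genes with a window, which are Hsd3b1, Cyp11a1, Insl3 and Lhcgr. The 6 genes have 7 windows, so this count of genes and the share of windows are not the same measure. Cyp11a1 has a window with no match and a window with the match just past the start. Hsd3b1 has a match before the start and another just past it. The 60 bases around the match are shown for the pair, with the match in capitals, at chr8:71689087-71689146 (plus strand, 138 bases before the start) and at chr17:88792101-88792160 (minus strand, 119 bases before the start).
Insl3: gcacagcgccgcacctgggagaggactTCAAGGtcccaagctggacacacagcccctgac
Lhcgr: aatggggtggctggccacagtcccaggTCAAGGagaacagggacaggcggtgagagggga

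The libraries of the deletion experiment held 28169990 to 31166500 counted reads and 19822 to 19976 genes with a count. Those of the 23KRA experiment held 14562564 to 19814511 reads and 14958 to 17330 such genes. Levels are in CPM, read counts relative to library size, after scaling of library sizes, and the limit that a count of 0 allows, 3 counts, lay at 0.0953 to 0.106 CPM in the deletion and 0.148 to 0.208 CPM in 23KRA. Cbx2 was counted at 93.9 and 97.7 CPM in controls and 78.5 and 86.5 CPM after deletion, and at 53.2 to 83.6 CPM in wild type and 48.8 to 89.7 CPM in 23KRA homozygotes. Which exons the deletion removes is not given in the labels, so a count over the whole gene checks the genotype only in part. Defining markers of the labelled cells were high in all libraries: Stra8, which marks cells entering meiosis, averaged 536 and 564 CPM in control and deleted libraries and 726 and 666 CPM in wild-type and homozygous ones.

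After Cbx2 deletion the Leydig genes lay on both sides of their control levels. Levels of Cyp17a1 and Insl3 in the deleted animals were 0.274 and 0.288 times those of controls, Lhcgr was 2.84 times its control level, and Cyp11a1, Star, Hsd3b6 and Hsd17b3 overlapped between the groups. Of the 9 genes, 7 had a log2 fold change below 0 and 2 above, with a median of -0.29, where the median over all 16725 genes tested was -0.0044. In 4 genes (Cyp17a1, Insl3, Hsd3b1 and Scarb1) both deleted libraries were below both controls, and in Lhcgr both were above. With 2 libraries a group such separation is common, since 33.1% of all genes tested did not overlap, 17.5% lower and 15.6% higher. At an adjusted p under 0.05 in edgeR's quasi-likelihood test (Benjamini-Hochberg, all genes), 0.012% of genes were called, and Cyp17a1 is the gene called lower, 0.00598% of those tested. That call chose the set, so nothing further is read from it.

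**Figure D1:**
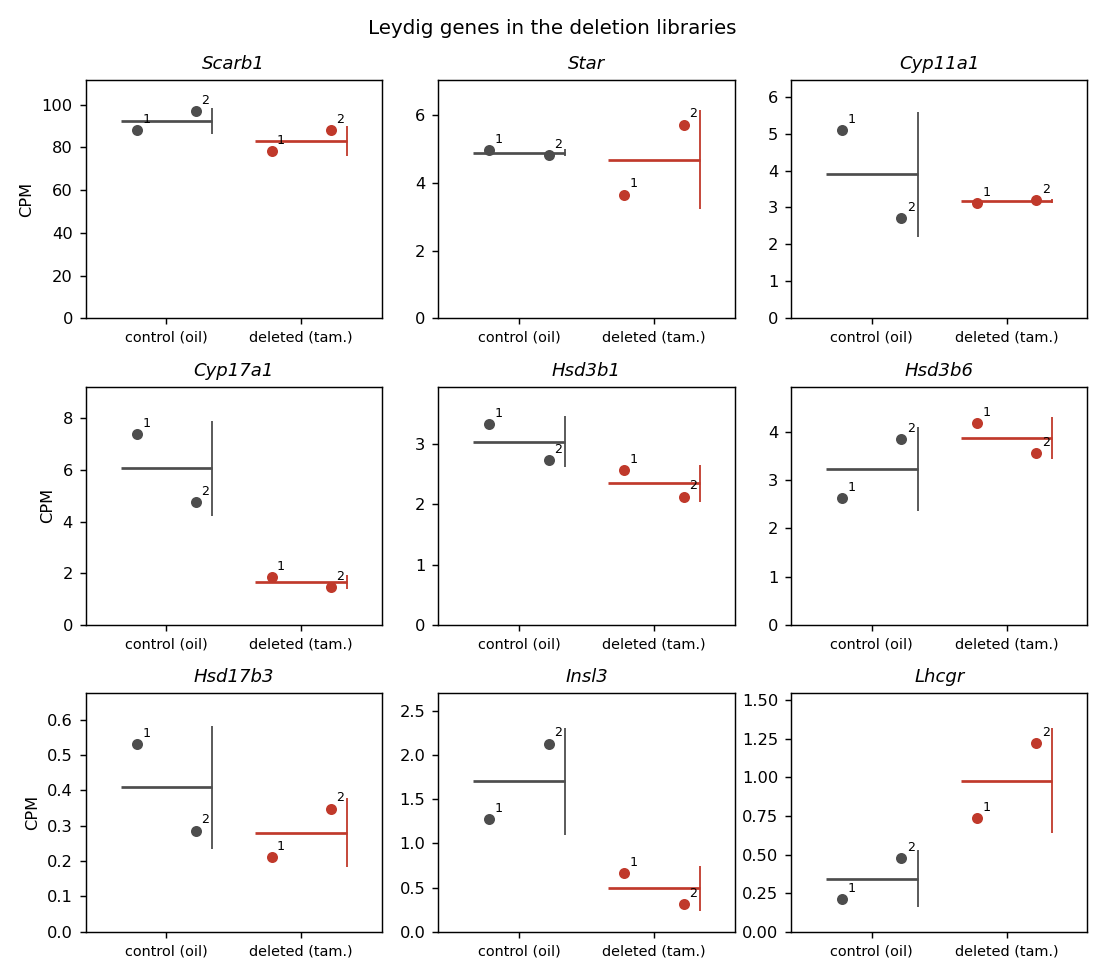
Level of each of the 9 Leydig genes (CPM, vertical axis, a separate scale for each gene) in the 2 control libraries given oil (grey) and the 2 deleted libraries given tamoxifen (red). Points are libraries with their replicate number, horizontal lines are means and vertical bars are 1 SD; Cyp17a1 and Insl3 sit lower and Lhcgr higher in the deleted libraries, while Star, Cyp11a1, Hsd3b6 and Hsd17b3 overlap.

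The genes of cholesterol entry lay close to their controls. Scarb1 (chromosome 5, 125277087 to 125341094, minus strand) encodes the receptor that takes up cholesterol from high-density lipoprotein. It stood at 88.2 and 96.9 CPM in controls and 78.2 and 88.2 CPM after deletion, a log2 fold change of -0.15 (SE 0.12), and the lowest control (88.25 CPM) and the highest deleted library (88.22 CPM) were next to equal. Star, whose product moves cholesterol to the inner mitochondrial membrane, stood at 4.96 and 4.83 CPM in controls and at 3.65 and 5.72 CPM after deletion. The deleted libraries lay on either side of both controls, with a log2 fold change of -0.06 (SE 0.23).

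The mitochondrial side-chain cleavage enzyme gene Cyp11a1 was at 5.10 and 2.70 CPM in controls and at 3.13 and 3.21 CPM after deletion, both between the controls. Its log2 fold change was -0.29 (SE 0.27) and became 0.24 when control replicate 1 was left out. Cyp17a1 (chromosome 19, 46667165 to 46673172, minus strand) encodes the hydroxylase and lyase that turns progestins into androgens. It was counted at 7.37 and 4.77 CPM in controls, 208 and 150 reads, and at 1.86 and 1.46 CPM after deletion, 53 and 42 reads. The means were 6.07 ± 1.84 and 1.66 ± 0.281 CPM (SD, n = 2 each) and the log2 fold change was -1.86 (SE 0.26). Between the same 2 groups, Cyp11a1 averaged 3.90 ± 1.70 and 3.17 ± 0.0569 CPM (SD, n = 2 each). The ratio of Cyp17a1 reads to Cyp11a1 reads was thus 1.44 and 1.76 in the controls and 0.596 and 0.457 in the deleted libraries, so the ratio was lower in both deleted libraries than in either control.

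The dehydrogenase genes were closer to their controls. Hsd3b1, which encodes the enzyme that makes progesterone from pregnenolone, was at 3.33 and 2.73 CPM in controls and at 2.57 and 2.13 CPM after deletion (log2 fold change -0.37, SE 0.27). Its neighbour Hsd3b6, known as the form of adult mouse Leydig cells, was at 2.62 and 3.85 CPM in controls and at 4.18 and 3.56 CPM after deletion (log2 fold change 0.25, SE 0.25). The ratio of Hsd3b1 to Hsd3b6 reads was 1.27 and 0.711 in controls and 0.613 and 0.598 after deletion. The ratio was lower in both deleted libraries. As shown above, a read that covers no differing base cannot be told apart between the pair, and how such reads were counted is not given. Hsd17b3 (chromosome 13, 64058266 to 64089230, minus strand), whose product makes testosterone from androstenedione, rested on 6 to 15 reads a library, at 0.531 and 0.286 CPM in controls and 0.211 and 0.349 CPM after deletion. Those groups overlapped and the standard error of 0.65 was larger than the log2 fold change of -0.53.

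The hormone and receptor genes lay on opposite sides of their controls. Insl3, the hormone of testicular descent, was at 1.28 and 2.13 CPM in controls and at 0.668 and 0.314 CPM after deletion, which rest on 36, 67, 19 and 9 reads. Its log2 fold change of -1.79 (SE 0.45) was close in size to that of Cyp17a1. Jak3, which shares exon bases with Insl3, averaged 2.12 ± 0.193 and 1.61 ± 0.0902 CPM (SD, n = 2 each) and its part in the count of Insl3 was not tested. Lhcgr (chromosome 17, 88716481 to 88791990, minus strand) was at 0.213 and 0.477 CPM in controls and at 0.738 and 1.22 CPM after deletion. That is 6 and 15 reads against 21 and 35, a log2 fold change of 1.48 (SE 0.53). The receptor gene was thus higher in both deleted libraries, in which the hormone gene Insl3 and the androgen enzyme gene Cyp17a1 were lower.

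**Figure D2:**
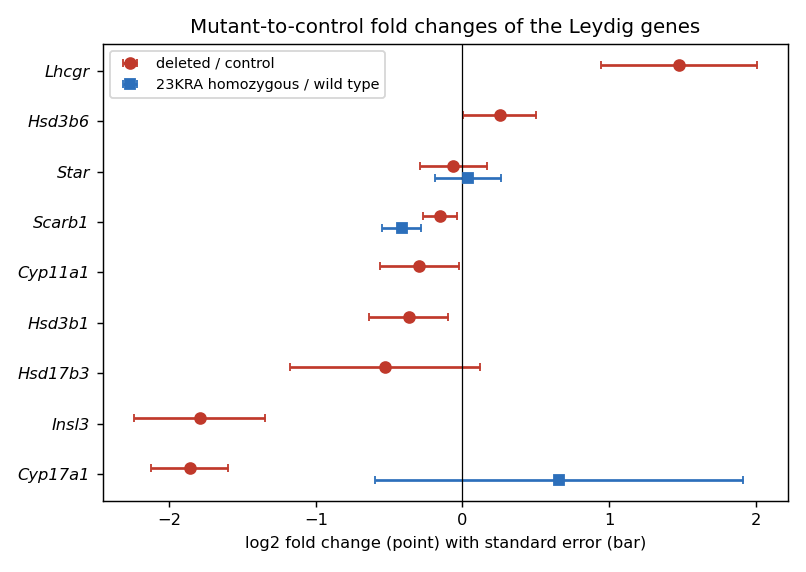
Log2 fold change (horizontal axis, mutant over control; points) with its standard error (bars) for each Leydig gene that passed the filter on low counts, in the deletion (red circles, 9 genes) and in 23KRA (blue squares, 3 genes). In the deletion the values run from -1.86 for Cyp17a1 to 1.48 for Lhcgr, with Star near 0 in both experiments.

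Summed over the 9 genes, the level came to 114 and 119 CPM with oil and to 95.2 and 106 CPM after deletion. Scarb1 alone made up 77.6% to 83.1% of that sum, so the sum mostly gives Scarb1. Without Scarb1 and Star, a split made after their values were seen, the other 7 genes summed to 20.4 and 16.9 CPM in controls and 13.4 and 12.2 CPM after deletion, or 18.7 ± 2.48 and 12.8 ± 0.788 CPM (SD, n = 2 each). Most of that difference is Cyp17a1: without it the remaining 6 genes summed to 13.1 and 12.2 CPM with oil and to 11.5 and 10.8 CPM after deletion. In bulk RNA, fewer cells of a type and less RNA per cell cannot be told apart. Per kilobase of exon, Scarb1 was highest at a mean of 10.3 CPM over the 4 libraries. Hsd3b6 (1.97), Insl3 (1.76), Hsd3b1 (1.45), Cyp17a1 (1.396), Star (1.16) and Cyp11a1 (0.736) followed, and Hsd17b3 (0.247) and Lhcgr (0.0866) were lowest, all in CPM per kilobase. These means take control and deleted libraries together, and the order depends on that. In the controls alone Insl3 was at 2.05 and 3.42, Cyp17a1 at 2.66 and 1.72 and Hsd3b6 at 1.45 and 2.13 CPM per kilobase.

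Lists of markers of other cells of the testis were summed in the same libraries. A list of 8 interstitial matrix genes summed to 13.2 and 15.8 CPM in controls and to 31.2 and 21.4 CPM after deletion, with 7 of 8 above 0. One of them, Dcn, a proteoglycan gene of connective tissue, was called higher (log2 fold change 1.57, SE 0.26; edgeR adjusted p = 0.0207), a call that DESeq2 and limma-voom did not make and that was lost without deleted replicate 1. A list of 12 macrophage genes summed to 79.2 and 63.3 CPM in controls and 134 and 61.3 CPM after deletion, with deleted replicate 1 highest. Its most abundant gene, H2-Ab1, averaged 28.5 and 35.5 CPM, and the sum mostly gives H2-Ab1, Cd74, H2-Aa and H2-Eb1. Of the 12 genes 10 were above 0 and 2 below, Csf1r (1.02 and 0.474 CPM) and Adgre1 (0.764 and 0.473 CPM). Sertoli genes summed to 324 and 346 against 337 and 375 CPM (Ctsl highest). Peritubular myoid genes summed to 72.3 to 73.2 against 64.9 to 74.0 CPM, and endothelial genes to 33.7 to 34.9 against 32.6 to 38.2 CPM. The myoid sum mostly gives Actg2 (means 52.3 and 50.2 CPM) and the endothelial sum mostly Egfl7 (30.1 and 31.5 CPM). In these lists Acta2 averaged 0.459 and 0.368 CPM and Pecam1 0.331 and 0.455 CPM. Spermatid genes summed to 4003 to 4328 CPM in controls and 3416 to 3966 CPM after deletion, with 10 of 10 below 0 and Prm1 the highest. The part of these cells in the Leydig values was not tested.

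In the 23KRA libraries only Scarb1 and Star were counted in every library. The other 7 Leydig genes stood at 0 in 35 of their 70 values, and none exceeded 4.18 CPM. Only Cyp17a1, Star and Scarb1 passed the filter on low counts, and no gene of the 14208 tested, 0%, was called by edgeR, DESeq2 or limma-voom, so none of these 3 was. In edgeR 432 genes had an unadjusted p under 0.05. No Leydig gene separated the groups without overlap, where 0.711% of all genes tested did, 0.274% lower and 0.436% higher in homozygotes.

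**Figure D3:**
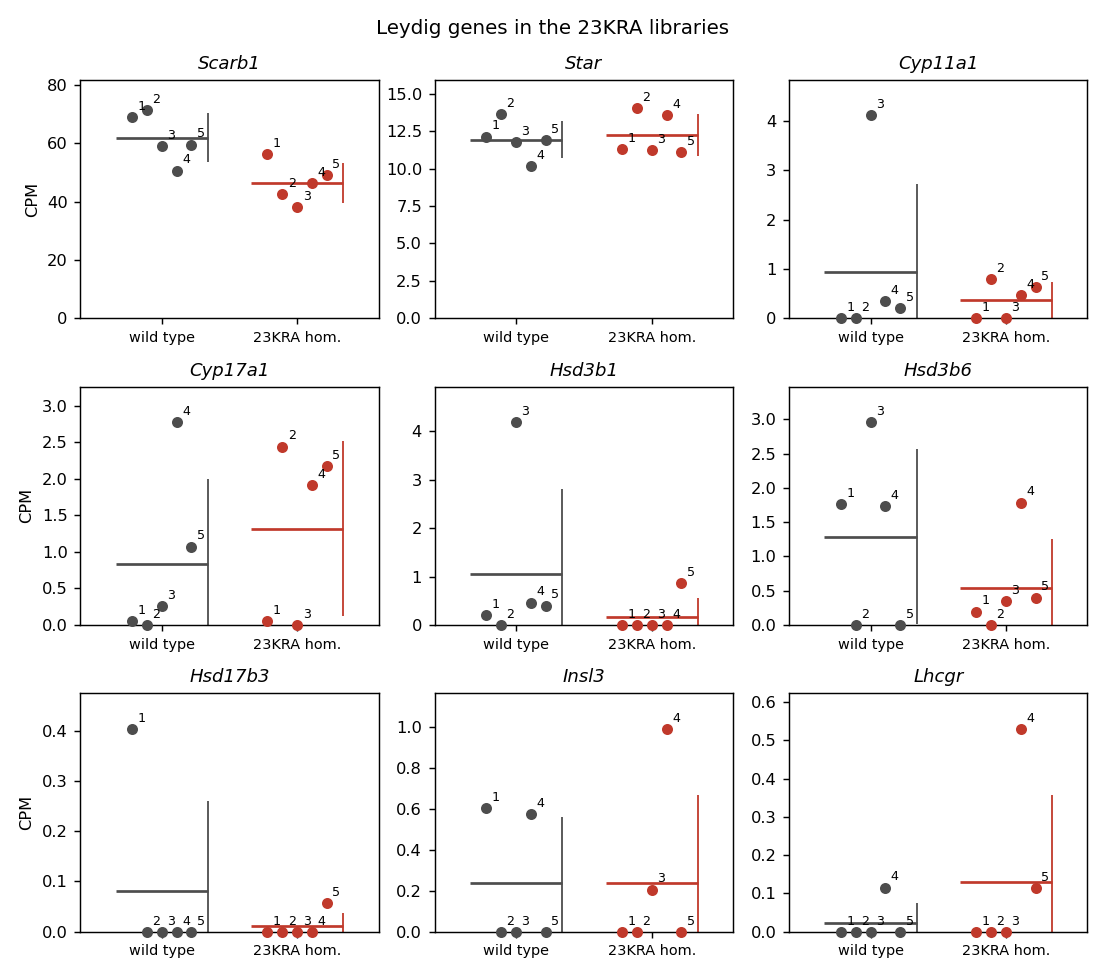
Level of each of the 9 Leydig genes (CPM, vertical axis, a separate scale for each gene) in 5 wild-type libraries (grey) and 5 libraries of 23KRA homozygotes (red). Points are libraries with their replicate number, lines are means and bars are 1 SD, drawn down to 0 at most; Scarb1 (38.2 to 71.3 CPM) and Star (10.2 to 14.05 CPM) are counted in all 10 libraries, and each of the other 7 genes is at 0 in 2 to 8 of them.

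Scarb1 was at 69.1, 71.3, 58.9, 50.6 and 59.5 CPM in wild type and at 56.2, 42.5, 38.2, 46.3 and 49.0 CPM in homozygotes. The homozygotes were lower but for replicate 1, whose level exceeded that of wild-type replicate 4. The means were 61.9 ± 8.40 and 46.4 ± 6.82 CPM (SD, n = 5 each), a ratio of 0.750 and a log2 fold change of -0.41 (SE 0.13). Star was at 12.1, 13.7, 11.8, 10.2 and 11.9 CPM in wild type and at 11.3, 14.05, 11.2, 13.6 and 11.1 CPM in homozygotes. The groups lay on top of each other, at 11.9 ± 1.24 and 12.3 ± 1.43 CPM (SD, n = 5 each), with a log2 fold change of 0.04 (SE 0.23).

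Star varied less than the median gene of its level. Its coefficient of variation over the 10 libraries was 10.5%, while the median over the 3291 genes with a mean of 5 to 20 CPM was 31.4%. For Scarb1 it was 20.1%, against a median of 16.0% over 4647 genes of 20 to 100 CPM, and for the other 7 genes it was 106% to 275%. These ranges of level were chosen after the values were seen. Each coefficient takes both groups together, so it also holds the difference between group means, which for Scarb1 were 61.9 and 46.4 CPM. Ash2l, next to Star on the other strand, was at 203 to 243 CPM with a coefficient of variation of 5.96%, and its part in the count of Star was not tested. In the deletion libraries the coefficient was 17.8% for Star, near the median of 18.5% over 3237 genes of 1 to 5 CPM. For Scarb1 it was 8.67%, near the median of 7.88% over 5148 genes of 20 to 100 CPM. The 71.4% for Cyp17a1 and 72.5% for Insl3 include the differences between control and deleted means, which were known when the set was chosen.

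Cyp17a1 was at 0.050, 0, 0.257, 2.77 and 1.07 CPM in wild type and at 0.049, 2.44, 0, 1.92 and 2.18 CPM in homozygotes. Both groups held libraries at or near 0 and libraries above 1 CPM, and the log2 fold change of 0.66 had a standard error of 1.25. Cyp11a1 was at 0, 0, 4.12, 0.347 and 0.201 CPM in wild type and at 0, 0.791, 0, 0.463 and 0.631 CPM in homozygotes. Cyp11a1 had no count in wild-type replicates 1 and 2 and homozygous replicates 1 and 3, where Cyp17a1 had 0 or 1 read. Both genes were counted in every other library, but their order among those differed. The library highest in Cyp11a1, wild-type replicate 3, held 0.257 CPM of Cyp17a1. The library highest in Cyp17a1, wild-type replicate 4, held 0.347 CPM of Cyp11a1.

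Hsd3b1 was at 0.201, 0, 4.18, 0.462 and 0.402 CPM in wild type and was counted in 1 homozygote, replicate 5, at 0.860 CPM. Hsd3b6 was at 1.76, 0, 2.96, 1.73 and 0 CPM in wild type and at 0.197, 0, 0.345, 1.79 and 0.401 CPM in homozygotes. Wild-type replicate 3 was thus the highest library for Cyp11a1, Hsd3b1 and Hsd3b6, but had no count of Hsd17b3, Insl3 or Lhcgr. Hsd17b3 was counted in wild-type replicate 1 (0.403 CPM) and homozygous replicate 5 (0.0573 CPM) and was at 0 in the other 8 libraries.

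Insl3 was at 0.604 and 0.578 CPM in wild-type replicates 1 and 4, at 0.207 and 0.992 CPM in homozygous replicates 3 and 4, and at 0 in 6 libraries. Lhcgr was at 0.116 CPM in wild-type replicate 4, at 0.529 and 0.115 CPM in homozygous replicates 4 and 5, and at 0 in 7 libraries. Levels at or under the limit of 0.148 to 0.208 CPM do not separate a library with the transcript from one without it at this depth. Per kilobase of exon, the means over the 10 libraries were 6.37 CPM for Scarb1 and 2.94 CPM for Star, and for the other 7 genes 0.510 CPM (Hsd3b6) down to 0.00993 CPM (Lhcgr).

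The summed level of the 7 genes other than Star and Scarb1 was 3.02, 0, 11.5, 6.01 and 1.68 CPM in wild type and 0.246, 3.23, 0.551, 5.69 and 4.24 CPM in homozygotes. The group means of 4.44 ± 4.52 and 2.79 ± 2.36 CPM (SD, n = 5 each) lay within each other's spread. Wild-type replicate 3, the highest for this sum, was also the highest for the macrophage list, at 173 CPM against 9.59 to 50.7 CPM in the other 9 libraries, and for the interstitial matrix list, at 27.2 CPM against 7.64 to 15.4 CPM. Wild-type replicate 2, with none of the 7 genes counted, held 25.8 CPM of macrophage and 11.7 CPM of interstitial matrix genes, inside the range of the others. Of the other lists, Sertoli genes summed to 125 to 167 CPM in wild type and 123 to 179 CPM in homozygotes (Ctsl highest), and spermatid genes to 717 to 1933 and 637 to 1954 CPM (Odf2 highest, 10 of 10 below 0). The part of these cells in the Leydig values was not tested.

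**Figure D4:**
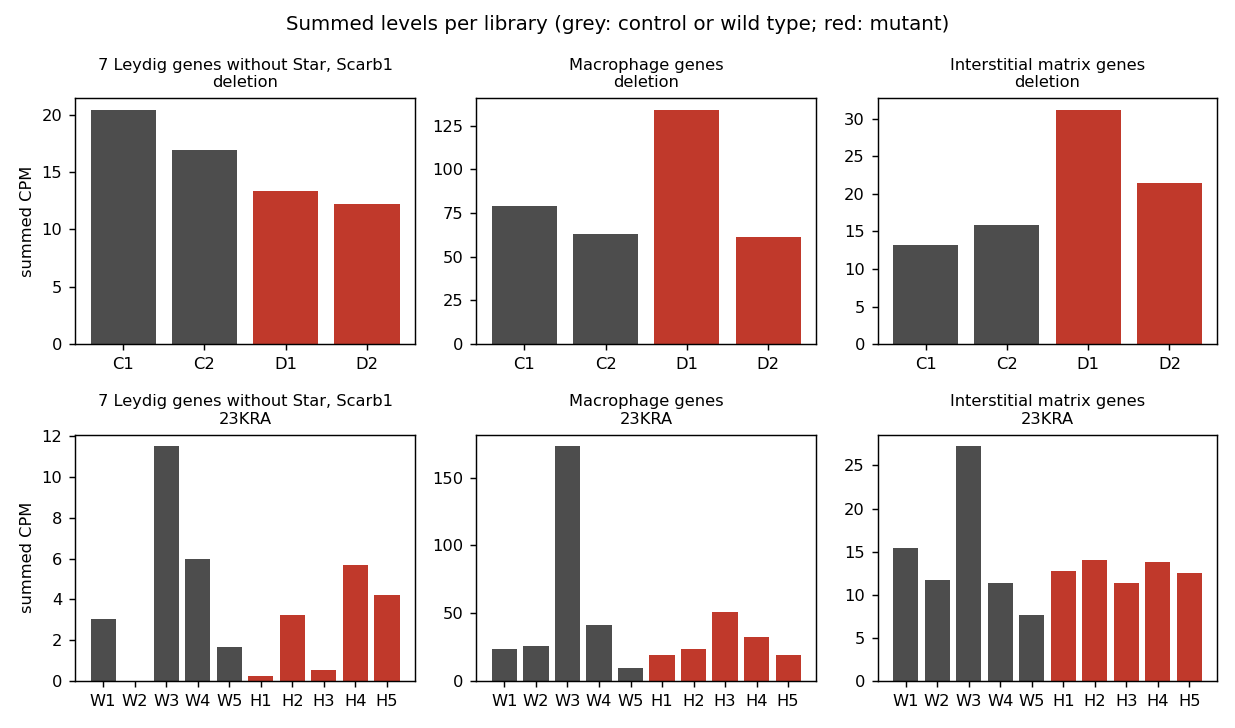
Summed level (CPM, vertical axis, separate scales) in each library of the 7 Leydig genes without Star and Scarb1, of 12 macrophage genes and of 8 interstitial matrix genes, in the deletion (top; C control, D deleted) and in 23KRA (bottom; W wild type, H homozygous). Bars are single libraries, grey for control or wild type and red for mutant; in the deletion the Leydig sum is lower and the matrix sum higher in both mutant libraries, and in 23KRA wild-type replicate 3 is highest in all 3 sums.

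How far the Leydig genes vary together from library to library is given over the 10 libraries of 23KRA, after removal of group means. It is given for the 3 pairs of genes that passed the filter. Each of these pairs includes Star or Scarb1, so they do not show how the genes of low counts vary with each other. These levels were known when the genes were chosen, so the values are a description. For Cyp17a1 with Star, Pearson's r was -0.05 and Spearman's rho -0.10, and r was 0.037 without the 2 libraries farthest from the median of Cyp17a1. For Cyp17a1 with Scarb1, r was -0.37 and rho -0.43, and r was -0.82 without the 2 farthest. For Star with Scarb1, r was 0.30 and rho 0.28, and r was 0.25 without the 2 farthest. The value for Cyp17a1 with Scarb1 rests on single libraries: it was -0.92 without homozygous replicate 3, which was lowest in Scarb1 and had no Cyp17a1 count, and it ran from -0.92 to -0.17 as each library was left out in turn.

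Over all 14 libraries, with group means removed, the genes most like Cyp17a1 were Ugt8a (r = 0.97), Rfx5 (0.93), Scoc (0.91), Ubxn2a (0.90) and Tmem192 (0.90), from 13132 genes ranked. This is a description over few libraries. In the 10 libraries of 23KRA alone r ran from 0.91 (Tmem192) to 0.98 (Ugt8a) over these 5 genes. In the 4 deletion libraries alone it ran from -0.63 (Rfx5) to 0.99 (Scoc), but 2 libraries a group are too few for a correlation. Only genes past the filter on low counts in both experiments, and with a minimum mean level in each, were ranked. Of the other Leydig genes only Star (rank 7636) and Scarb1 (rank 10934) met this, so the rest could not be among the 5. Cyp11a1 had r = 0.75 with Cyp17a1, Lhcgr 0.57, Hsd3b1 0.47, Hsd3b6 0.09, Insl3 0.08, Star -0.05, Hsd17b3 -0.12 and Scarb1 -0.37. Genes at 0 in the same library share that value.

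The rest of the steroid pathway and further Leydig genes, 48 in all, did not pass the test in either experiment. In the deletion 43 passed the filter and 0 rose or fell (edgeR, smallest adjusted p = 0.312), with 3 at an unadjusted p under 0.05 and a median log2 fold change of -0.037. DESeq2 and limma-voom also called 0. In 23KRA 35 passed the filter and 0 rose or fell, with 1 at an unadjusted p under 0.05, the cholesterol transporter gene Npc1 (33.1 and 42.5 CPM), and a median of -0.0070. DESeq2 and limma-voom called 0 there too.

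Genes that supply electrons to the steroid enzymes were well counted and close to their controls in the deletion. Cyb5r3, a cytochrome b5 reductase gene, averaged 165 ± 14.2 and 157 ± 2.34 CPM, and Por, which encodes the reductase that Cyp17a1's enzyme depends on, averaged 94.3 ± 18.3 and 89.9 ± 8.27 CPM (SD, n = 2 each), with 4 of the 6 genes above 0. Of 15 cholesterol supply genes, 4 were above and 11 below 0, with a median of -0.072. Sqle, an enzyme gene of cholesterol synthesis, averaged 169 ± 2.05 and 162 ± 1.88 CPM. Of 7 transcription factor genes, 3 were above and 4 below 0, led in level by Nr4a1 (19.9 and 18.7 CPM) and Nr2f2 (12.4 and 13.2 CPM). Nr5a1, the regulator of most steroid enzyme genes, averaged 2.74 ± 0.619 and 2.24 ± 0.136 CPM (SD, n = 2 each), and its groups overlapped.

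Genes of androgen and oestrogen conversion, 6 of 8 past the filter, had a median of 0.028, with Hsd17b4 at 125 and 127 CPM and Hsd17b12 at 74.5 and 80.4 CPM. The 3 adrenal enzyme genes were at or near 0, with at most 6 reads of Cyp21a1 in a library. Among 9 other Leydig markers, 3 were above and 6 below 0, with a median of -0.28. The most abundant were Gramd1b (20.2 ± 0.817 and 16.7 ± 0.0572 CPM) and Aldh1a1 (12.2 and 11.9 CPM), a retinaldehyde dehydrogenase gene. Klk1b27, a kallikrein gene chosen after its values were seen, was at 0.5004 ± 0.0564 CPM in controls and 1.86 ± 0.039 CPM after deletion (SD, n = 2 each; log2 fold change 1.88, SE 0.41; edgeR adjusted p = 0.312). It was called higher when no filter on low counts was applied.

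In 23KRA all 6 electron donor genes were below 0, with a median of -0.15, Cyb5r3 at 130 and 119 CPM and Por at 72.0 and 63.9 CPM. Cholesterol supply genes were 8 above and 6 below 0 (Srebf2 at 105 and 111 CPM), and transcription factor genes 4 above and 3 below (Nr2f2 at 13.4 and 16.0 CPM, Nr4a1 at 7.10 and 9.22 CPM). Of the conversion genes, 4 passed the filter, 2 above and 2 below 0, with Hsd17b4 at 138 and 128 CPM and Hsd17b12 at 48.9 and 58.5 CPM. Of the other Leydig markers 4 passed the filter, with Gramd1b at 15.6 and 16.1 CPM and Aldh1a1 at 8.01 and 7.21 CPM. Klk1b27, Cyp11b1 and Cyp11b2 had no count in any of the 10 libraries.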

How the data were processed

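The authors deposited raw counts of reads per gene, 1 table per experiment, with no normalization. The submitters' processing notes name STAR 2.5.3, Trim Galore 0.4.3, Subread 1.5.0, featureCounts and SAMtools 1.4.1, and the build mm10. Annotation, strandedness in counting and handling of multiply mapped reads were not given in the sources used here.

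Each experiment was fitted apart with edgeR 4.0.16 (R 4.3.3): filterByExpr, TMM scaling, two-sided quasi-likelihood F tests and Benjamini-Hochberg adjustment over all genes at 0.05. Residual degrees of freedom were 2 (deletion) and 8 (23KRA). The common coefficient of biological variation was 0.0988 and 0.393. CPM use TMM-scaled library sizes. Correlations use log2 CPM with a prior count of 0.5 and all 14400 permutations within groups, whose smallest p is 6.94e-05. Limits from a count of 0 cover counting error only. Pairs of libraries of a group differed by more than sampling noise (chi-square per degree of freedom 11.2 to 41.4), so each counts as 1 replicate.

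The members and lists were chosen with earlier results of these data known. Named genes are the members, and of each further pathway list every gene called or else the 2 of highest mean CPM, plus the 5 genes most like Cyp17a1 and the most abundant gene of each list of another cell type. Not every gene under this rule is reported here. Nr5a1, Npc1, Klk1b27, Jak3, Ash2l and Stra8 were added after their values were seen. Gene positions are from GENCODE vM21. Promoter windows are from RefSeq, and none was used for Cyp17a1, Star or Scarb1. Alternatives were DESeq2 1.42.0 (its size factors and its test), upper quartile scaling, no filter, limma-voom 3.58.1, a replicate block and each library left out. Leaving wild-type replicates 2 and 3, where the fewest genes were detected, out of 23KRA was chosen after seeing the data.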

Additional observations from a re-analysis of the deposited data

Results flagged for a closer look

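Of 50 groups of 5 libraries tested in 23KRA, 13 held a library that stood apart from the others of its group. Its gap to the nearest library was above 0.71 of the group's range. Chance gives about 1 in 20 for values of a normal distribution, a share that does not apply to levels with many values at 0. In wild type, replicate 3 stood high in Cyp11a1 (4.12 CPM), Hsd3b1 (4.18 CPM) and the macrophage list (173 CPM, with the next library at 41.6 CPM). Replicate 4 stood high in Lhcgr (0.116 CPM) and in the sum of the cholesterol supply genes (710 CPM, with the next at 669 CPM), and replicate 1 in Hsd17b3 (0.403 CPM). Replicate 5 stood high in the sum of the adrenal enzyme genes (2.55 CPM) and low in the sum of the genes of differentiating spermatogonia (1632 CPM, with the next at 1743 CPM). In homozygotes, replicate 4 stood high in Hsd3b6 (1.79 CPM), Insl3 (0.992 CPM) and Lhcgr (0.529 CPM), and replicate 5 in Hsd3b1 (0.860 CPM) and Hsd17b3 (0.0573 CPM). Where the other libraries of a group are at 0, any count stands apart by this measure. Lhcgr in wild-type replicate 4 (2 reads) and Hsd17b3 in homozygous replicate 5 (1 read) were under the limit of 3 counts.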

How the results depend on the processing

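In the deletion, 2 genes were called in all, and 8 without a filter on low counts, 1 by DESeq2, 1 by limma-voom, 62 with the replicate number as a block and 2 to 73 when a library was left out (73 without deleted replicate 2 and 11 without control replicate 1). The log2 fold change of Cyp17a1 ranged from -2.14 to -1.51. The number of Leydig genes called, a description since the call chose the set, went from 1 to 2 with the block, which added Insl3, and the block took the further pathway genes from 0 to 1, which was also 1 without a filter; both times this was Klk1b27. In 23KRA, 0 genes were called in all and 2 with the block. In the deletion, deviations of same-numbered libraries correlated at 0.161 and of differently numbered ones at -0.161. With 2 libraries a group these values can differ only in sign. In 23KRA same-numbered libraries gave -0.0109 to 0.224 and differently numbered ones -0.221 to 0.0726. The main fit did not take the numbers as pairs, and whether they are pairs was not tested. Pairs of Leydig genes with an adjusted p under 0.05 by an exact permutation test, likewise a description, were 0, and 0 to 1 when a library was left out. Without the filter on low counts the number was also 0, of 36 pairs, with 2 at an unadjusted p under 0.05. The cause of these changes was not tested. Of 12 fold changes of Leydig genes, 3 changed sign, in 4 of 141 alternatives: Cyp11a1 without control replicate 1 (0.24), Star without deleted replicate 1 (0.23) in the deletion, and Star in 23KRA without wild-type replicate 4 or homozygous replicate 2. Insl3 ranged from -2.43 to -1.35 and Lhcgr from 1.04 to 2.18 in the deletion. With 2 libraries a group, and 35 of 70 values at 0 in 23KRA for the 7 genes of low counts, depth and replicate number limit what can be told apart.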
